A study of Mus musculus with 16 samples.

Results

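C2C12, an established line of mouse myoblasts, was sequenced in growth medium, and the libraries were compared between a triple knockout (tKO) of microRNA genes and controls. The comparison used the growth medium (GM) libraries alone, 8 of the 16 in the series: 4 from tKO cells and 4 from controls. All cells were PAX7 negative per the labels, were kept in high-glucose medium with fetal bovine serum, and were harvested while still subconfluent. Controls were wild-type cells in the form of 2 populations. The tKO cells lacked the genes of miR-206 and of both copies of miR-1a (miR-1a-1 and miR-1a-2) and came from 2 clones. Each line gave 2 cultures, numbered BR1 and BR2 in the titles and called cultures 1 and 2 here. Nothing in the labels says that the cultures were started separately, so p-values measure only the spread between these samples, part of which may be technical. Unless line averages are named, each p-value and SE counts the 2 cultures of a line as separate units, so n = 4 stands for 2 lines. A difference between 2 clones and 2 populations also carries whatever sets a clone apart from a population, and the knockout and the cloning cannot be told apart. The other 8 libraries, from the same lines after 3 days in low serum (DM3), served to estimate the spread and to follow the GM differences into another stage.

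MicroRNAs pair through a short seed at their start with sites in the 3′ untranslated region (UTR) of messenger RNAs and lower the stability or translation of those messages. miR-1 and miR-206 are muscle microRNAs with the same seed, and miR-206 is known to be low in dividing myoblasts and to rise as they differentiate, so growth medium is the stage at which the family is usually least abundant. Targets reported for the family include cytoskeletal, metabolic and cell cycle genes. The mature sequence of miR-206-3p, 1 of the deleted microRNAs, is shown because every site search below starts from it. It is from RefSeq on GRCm38.p6 (chr1:20679055-20679076, plus strand), with the seed, bases 2 to 8, in capitals.

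miR-206-3p: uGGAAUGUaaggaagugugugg

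A perfect seed match followed by an A reads ACATTCCA in the message, and the 7-base versions are ACATTCC and CATTCCA. The windows below are 30 bases of the longest annotated GENCODE M21 3′ UTR of 5 genes, with the match in capitals. Mmd, Twf1 and Gpd2 are reported targets of the family, and Tagln2 and Ccnd2 are the reported targets whose messages differed in GM. Counted from the first base of the UTR, the matches start at base 613 of 1729 in Mmd (chromosome 11), base 1646 of 1872 in Twf1 (chromosome 15), base 186 of 3245 in Gpd2 (chromosome 2), base 72 of 675 in Tagln2 (chromosome 1) and base 977 of 5176 in Ccnd2 (chromosome 6).

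Mmd: gcaaacggtcaACATTCCAcgaacaaacat
Twf1: gaagtcaatgcACATTCCAgaatatagatg
Gpd2: aacactggaaaACATTCCAaaacttaagat
Tagln2: tgttttagcagACATTCCctgagagcccct
Ccnd2: ttgttataaacCATTCCAttagaaaagcac

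Depth was 24848686 to 34954079 fragments in the 4 controls and 22642563 to 31378669 in the 4 tKO libraries. Levels are in FPKM, fragments per kilobase of gene length, scaled by the depth of the library. A count of 3 fragments, used as the detection floor, corresponds to 0.0858 to 0.132 FPKM for a gene of 1 kilobase in these libraries and covers counting error only. Pearson's r across genes was 0.978 to 0.989 between cultures of a line and 0.948 to 0.988 between genotypes, so the ranges overlap. A principal component analysis put 47.6% of the variance on its first axis. On it, tKO clone 1 culture 2 lay farthest from the controls (41.7 against -23.8 to -11.01), and tKO clone 2 culture 1 lay closest (-8.25).

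The myoblast label was checked against its markers. Myf5, a myogenic determination factor, stood at 13.2 to 20.6 FPKM in the controls and 11.5 to 13.9 in tKO cells. Des, the muscle intermediate filament desmin, stood at 31.2 to 47.8 and 9.22 to 41.4 FPKM. Myod1, the other determination factor and a defining marker of this line, had 0 fragments in every control GM library and 0 to 3 in tKO libraries, and Pax7 had at most 1 fragment in any GM library. Myod1 was therefore not detected in control GM libraries at this depth, while Myf5 and Des were present. In DM3 it stood at 0.746 to 2.75 FPKM in controls and 1.61 to 3.41 in tKO cells, and whether its gene model or the cells lie behind the absence in GM was not tested. The summed level of all 37 myogenic regulators and surface markers was 910 to 1045 FPKM in the controls and 969 to 1129 in tKO cells. Its largest members were Itgb1 (means 313 and 355 FPKM), Cav1 (122 and 142) and Sdc4 (102 and 113), so the sum says little about the regulators. Only 24 of the 37 reached 1 FPKM in any GM library. Of the 29 tested members, Cdh15 rose and Cxcr4 fell (6.9% called, against 2.06% of all genes). The host transcript that contains the miR-206 and miR-133b genes had 0 to 4 fragments in controls and 0 in tKO cells, too few to check the knockout, and the microRNAs themselves were not analysed here. Mib1, which contains the miR-1a-2 gene, stood at 8.31 to 10.6 FPKM in the controls and 7.85 to 10.2 in tKO cells.

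In GM, 244 of 11832 tested genes (2.06%) differed between tKO and control cells by limma on log2(FPKM + 1) with Benjamini-Hochberg adjusted p under 0.05. Of these, 65 (0.549%) were higher in tKO cells and 179 (1.51%) lower. With so few rises, a gene list of the sizes used below can hold none without differing from all genes. Differences below are in units of log2(FPKM + 1), a scale that makes changes of low genes look smaller than they were, and adjusted p-values are from this limma fit. The falls were the larger changes: 77 of the genes that fell and 11 of those that rose moved by at least 1 log2 unit. Among all tested genes, every tKO library was above every control in 636 (5.38%) and below every control in 1020 (8.62%). The median difference over all genes was -0.01, and 47.6% of them lay above 0. Protein-coding genes made up 237 of the 244. As bulk RNA was measured, fewer cells expressing a gene and less RNA per cell cannot be told apart.

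**Figure D1:**
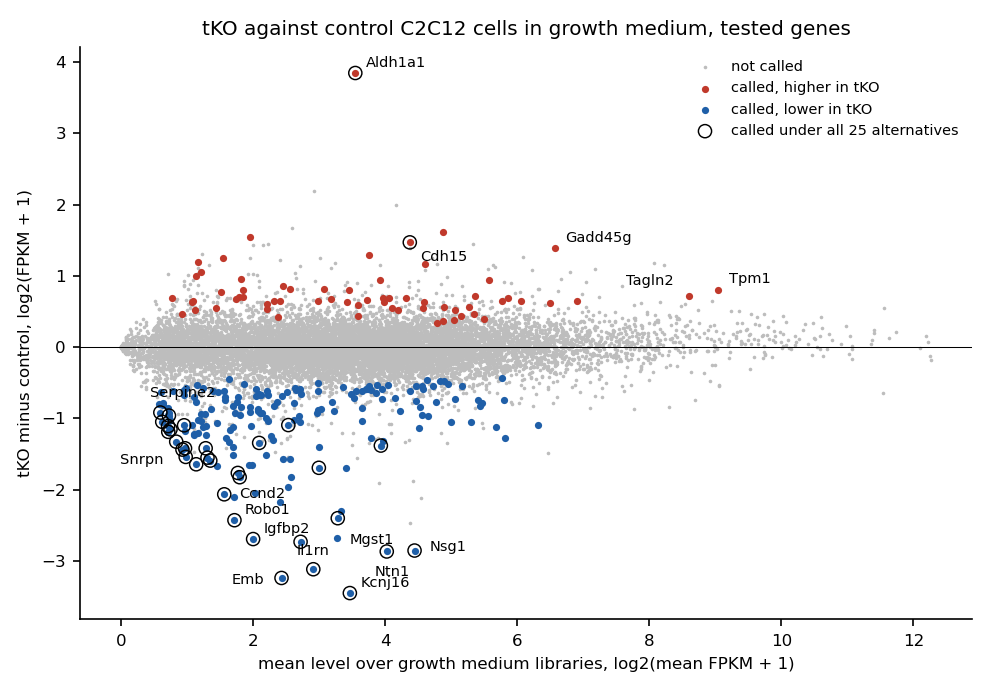
Difference between tKO and control cells in growth medium (log2 FPKM + 1, vertical axis) against mean level (log2 scale, horizontal axis) for 11832 genes, each a point. Red and blue points are the 65 genes called higher and the 179 called lower in tKO cells, and rings mark the 33 genes called under all 25 alternatives that tested them all; 31 of the 33 lie below 0.

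The size of the set leaned on single libraries and lines. It fell to 80 to 115 genes without any 1 control library, to 143 or 100 without tKO clone 1 culture 1 or culture 2, and rose to 749 without tKO clone 2 culture 1 (194 without its culture 2). It was 33 and 38 without control population 1 or 2, and 179 and 1315 without tKO clone 1 or 2. Of the 244 genes, 71 were called in all 8 fits that left out 1 library and 75 when each line was averaged to 1 value per stage. A core of 33 genes, 2 higher and 31 lower, was called under all 25 alternatives that tested every one of them. The fit without control population 1 called these 33 genes and no others, so that fit alone set the core. Most called genes outside the core are given below with the number of their alternatives that called them. The core was picked by these calls and gets no test of its own.

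The clearest pattern was of messages present in every control library and nearly absent from every tKO library. Of the 179 genes that fell, 14 had at most 10 fragments in each tKO GM library: Emb, Igfbp2, Robo1, Auts2, Snrpn, Pid1, Rab6b, Cntn3, Alox5, Rbpms, Serpine2, Gng11, Cyp2j6 and Gm15846. All but Gng11 and Gm15846 are in the core. Among the genes that rose, 1 (Gm13932) was as low in all controls. Over all tested genes, 10 had at most 10 fragments in every tKO library and at least 100 in every control library, and 0 had the reverse pattern. These genes were singled out by their low tKO levels, so their counts describe the libraries and are not a test.

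Emb (ENSMUSG00000021728, chromosome 13, 117220625 to 117274098) encodes embigin, an immunoglobulin-family protein that accompanies monocarboxylate transporters to the cell surface. It stood at 9.57 and 7.70 FPKM in the cultures of control population 1, and at 9.81 and 7.95 in those of population 2. In tKO cells it stood at 0 and 0.0588 FPKM in clone 1 and 0.0424 and 0.0144 in clone 2, from 7 fragments in all against 2513 in controls. Both clones were far below every control library. Per depth, control cells had 326 times as many Emb fragments (95% exact counting interval 158 to 812), and the fitted difference was -3.24 ± 0.13 (SE, n = 4 per group, limma adjusted p = 2.21e-10). With each line averaged to 1 value per stage, the limma adjusted p was 0.000153. The related chaperones Bsg and Nptn, which serve the same transporters, stood at 516 ± 17.95 and 48.7 ± 2.76 FPKM in controls (SD, n = 4) and 591 ± 32.6 and 52.8 ± 5.06 in tKO cells, and neither passed the test (limma adjusted p = 0.565 and 0.652).

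Robo1 (ENSMUSG00000022883, chromosome 16, 72663149 to 73046095), a receptor for Slit guidance proteins, had the same shape. Its levels were 6.35, 3.71, 3.97 and 4.22 FPKM in the control libraries and 0.0134, 0.0350, 0.0211 and 0 FPKM in the tKO libraries. Controls thus held 287 times as many fragments per depth (interval 171 to 526), with a fitted difference of -2.43 ± 0.15 (SE, limma adjusted p = 6.21e-08). Ntn1 (ENSMUSG00000020902, chromosome 11, 68209364 to 68400823), the secreted guidance protein netrin-1, fell from 27.4 ± 2.35 to 3.18 ± 2.05 FPKM (SD, n = 4), a difference of -2.87 ± 0.26 (SE, limma adjusted p = 4.57e-06). Its control libraries read 30.8, 26.9, 26.2 and 25.5 FPKM and its tKO libraries 6.24, 2.22, 2.37 and 1.89. Every tKO library was below every control, and clone 1 culture 1 was the highest of the 4. Ntn1 and Robo1 were the only 2 members called among 38 tested axon guidance ligands and receptors (5.26%, against 2.06% of all genes). The median difference of that list was -0.22, with 24 members below 0 and 14 above, where 47.6% of all genes lay above 0.

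Igfbp2 (ENSMUSG00000039323, chromosome 1, 72824503 to 72852474), a secreted protein that binds insulin-like growth factors, stood at 4.97, 7.02, 5.79 and 5.97 FPKM in controls. In tKO cells it stood at 0.0258, 0.203, 0.0244 and 0.0248 FPKM, where 3 libraries were at 1 fragment and clone 1 culture 2 at 6. The groups were far apart, with 97.2 times as many fragments per depth in controls (interval 51.0 to 213) and a fitted difference of -2.69 ± 0.15 (SE, limma adjusted p = 1.25e-08). Igf2r, the receptor that takes up IGF2 and is imprinted in mice, fell from 2.02 ± 0.194 to 0.301 ± 0.0737 FPKM (SD, n = 4; difference -1.21, limma adjusted p = 0.000353) and was called under 24 of 25 alternatives, all except the fit without control population 1. The other 15 tested members of the insulin-like growth factor axis were not called (11.8% of the list called, against 2.06% of all genes).

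The remaining nearly absent messages were low in controls too, with means of 0.865 to 1.94 FPKM. Auts2, a nuclear regulator of transcription linked to neural development, went from 1.94 ± 0.388 FPKM (SD, n = 4) in controls to 3 fragments in the 4 tKO libraries together. Cntn3, an axonal adhesion molecule of the contactin family, went from 1.28 ± 0.0939 FPKM to 1 fragment, and Serpine2, an inhibitor of thrombin and plasminogen activators, from 1.08 ± 0.108 FPKM to 2 fragments. Snrpn, a paternally expressed imprinted gene for a small nuclear ribonucleoprotein, read 2.04, 1.36, 2.12 and 1.64 FPKM in the controls and 0, 0.0449, 0.0243 and 0.0247 in tKO cells (difference -1.44 ± 0.11, SE, limma adjusted p = 6.74e-07). The sources used here do not say if reads were counted by strand, so Snrpn and other genes that overlap a neighbour are uncertain. Rab6b, a vesicle transport GTPase, Alox5, the lipoxygenase that starts leukotriene synthesis, Rbpms, an RNA-binding protein, Pid1, an adaptor in insulin signalling, and Cyp2j6, a cytochrome P450, fell by 0.92 to 1.42 on the log2 scale. Pid1 had the highest tKO library among these 5, at 0.133 FPKM, and Cyp2j6 the lowest control library, at 0.767 FPKM, so the groups stayed apart in each. Gng11 and Gm15846 were called under 22 and 13 of 25 alternatives, and Gm15846 had only 6 to 14 fragments in controls.

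**Figure D2:**
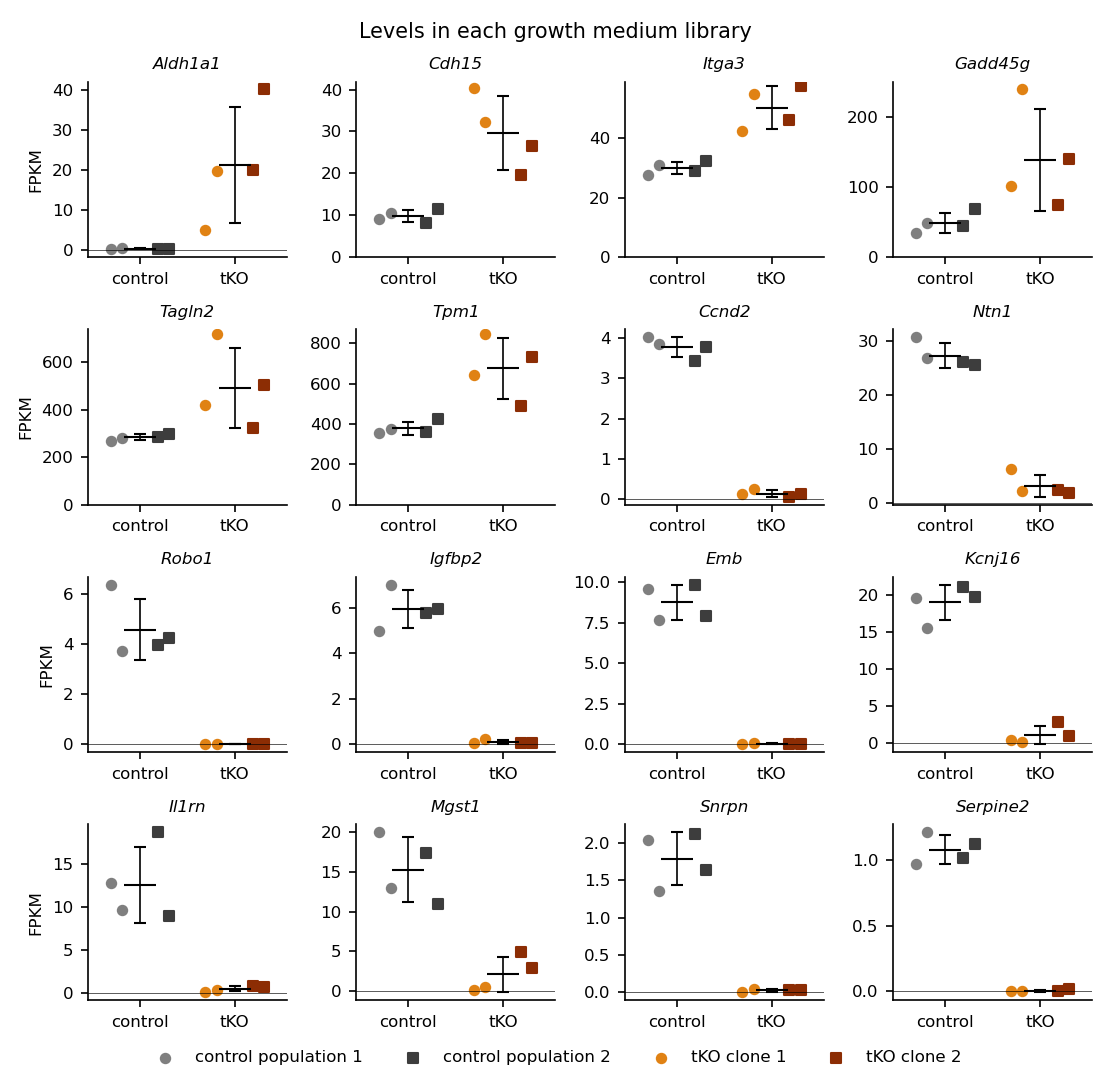
FPKM of 16 named genes in each growth medium library, with circles for line 1 and squares for line 2 of each genotype and bars for the group mean ± SD (n = 4). In each of the 16 panels the 4 tKO libraries lie wholly above (first 6 panels) or wholly below (last 10 panels) the 4 controls.

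On the log2(FPKM + 1) scale, the deepest fall was that of Kcnj16 (ENSMUSG00000051497, chromosome 11, 110968033 to 111027968), an inward rectifier potassium channel subunit. It stood at 19.6, 15.6, 21.2 and 19.8 FPKM in controls, at 0.410 and 0.0597 FPKM in tKO clone 1, and at 2.89 and 0.894 in clone 2. All tKO libraries were below all controls, but the tKO libraries themselves spanned a wide range. The difference was -3.45 ± 0.38 (SE, limma adjusted p = 5.16e-05). Kcnk5, a background potassium channel, fell from 1.37 ± 0.201 to 0.602 ± 0.217 FPKM (SD, n = 4, called under 13 of 25 alternatives). The other 11 tested potassium channel genes were not called (15.4% of the list called, against 2.06% of all genes). Of 25 tested sodium, calcium and chloride channel genes, 8% were called, against 2.06% of all genes. Cacnb3, a calcium channel β subunit (-1.05, called under 20 of 26 alternatives), and Trpm4, a calcium-activated cation channel (-0.57, 16 of 26), fell and none rose.

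Cytokine and chemokine genes held several of the falls. Among 64 tested interleukins, chemokines and their receptors, 7 fell and none rose (10.9% called, against 2.06% of all genes). Of the 64, 47 lay below 0 and the median was -0.28. An unadjusted p under 0.05 was found for 25 of the 64, against 2076 of all 11832 genes. Over all genes, 179 fell, 65 rose and 47.6% lay above 0. Il1rn (ENSMUSG00000026981, chromosome 2, 24336853 to 24351494), the secreted antagonist of the interleukin-1 receptor, stood at 12.8, 9.69, 18.6 and 9.001 FPKM in the controls and 0.164, 0.411, 0.812 and 0.722 FPKM in tKO cells. The groups were far apart, with a difference of -3.12 ± 0.23 (SE, limma adjusted p = 3.87e-07). Csf2rb, the shared β chain of the receptors for interleukin-3, interleukin-5 and GM-CSF, read 7.67, 2.27, 10.8 and 2.01 FPKM in the controls and 0.0354, 0.130, 1.498 and 0.198 in tKO cells, and was high in culture 1 of both populations. It was called under 21 of 25 alternatives. Lifr and Il6st, the 2 chains that form the receptor for leukaemia inhibitory factor, fell from 4.85 ± 0.843 to 0.849 ± 0.158 FPKM and from 26.9 ± 1.99 to 18.2 ± 2.32 FPKM (SD, n = 4), and were called under 24 and 21 of 26 alternatives. Cxcr4, a chemokine receptor of migrating myoblasts, fell from 2.11 ± 0.268 to 0.515 ± 0.121 FPKM (18 of 25), and Tnfrsf9, a tumour necrosis factor receptor, from 5.30 ± 0.503 to 2.11 ± 0.565 FPKM (23 of 26). Il18rap, a chain of the interleukin-18 receptor that was named after its value was seen, completed the 7 (-0.53, limma adjusted p = 0.0408, 8 of 25 alternatives). Outside this list, Saa3, an acute-phase protein, read 4.63 and 31.9 FPKM in population 1, 6.53 and 21.2 in population 2, 0.445 and 1.08 in clone 1 and 2.70 and 3.79 in clone 2. Its control values split by culture number more than by population, and it was called under 15 of 26 alternatives. The kinase Syk, best known from immune receptor signalling, fell in the core (-1.34). Interferon response and antigen presentation genes, 44 tested, held no call in either direction by limma or voom, where limma called 2.06% of all genes. An unadjusted p under 0.05 was found for 4 of them, against 2076 of all 11832 genes.

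Cell surface adhesion genes moved both ways. Cdh15 (ENSMUSG00000031962, chromosome 8, 122848374 to 122867397), M-cadherin, the cadherin of satellite cells and myoblasts, rose: it read 9.16, 10.4, 8.15 and 11.4 FPKM in controls, 40.3 and 32.3 in clone 1 and 19.6 and 26.4 in clone 2. The lowest tKO library was well above the highest control, and the difference was 1.47 ± 0.20 (SE, limma adjusted p = 0.000589). Of the 20 tested cadherins and protocadherins it was the only 1 called (5%, against 2.06% of all genes). The most abundant ones, Pcdhga12 (147 ± 8.05 and 138 ± 26.2 FPKM in control and tKO cells, SD, n = 4) and Cdh2 (36.7 ± 5.49 and 48.8 ± 12.5), were not called. Itga3, a laminin-binding integrin chain, rose from 29.96 ± 2.06 to 50.4 ± 7.18 FPKM (difference 0.72, limma adjusted p = 0.000969, 24 of 26 alternatives). It was the only 1 of 18 tested integrins to be called (5.56%, against 2.06% of all genes). The abundant Itgb1 (313 ± 39.5 and 355 ± 49.1 FPKM) and Itgb5 (124 ± 12.96 and 118 ± 46.5) were not called. In the immunoglobulin family, 4 of 22 tested members fell and none rose (18.2% called, against 2.06% of all genes). They were Emb, Cntn3, Jam3, a junctional adhesion molecule (-0.96, in the core), and Igsf3 (-0.86, 15 of 26 alternatives). Igsf11, another member of that family but not of the list, rose from 0.657 ± 0.134 to 3.18 ± 1.67 FPKM (difference 1.25, 15 of 25).

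Calls among secreted matrix genes and their enzymes were mostly falls, as over all genes (179 of 244). Of 48 tested basement membrane, fibrillar and matricellular genes, Thbs2, an antiangiogenic thrombospondin, fell from 78.4 ± 18.01 to 32.6 ± 10.9 FPKM (SD, n = 4), Ltbp2 from 4.69 ± 1.13 to 2.06 ± 1.07 and Fbln5, an elastic fibre protein, from 3.95 ± 0.799 to 1.83 ± 0.807. Loxl4, a lysyl oxidase that crosslinks matrix, rose from 14.1 ± 1.63 to 23.7 ± 5.33 FPKM. These 4 (8.33% of the list, against 2.06% of all genes) were called under 15, 14, 15 and 12 of their alternatives, fewer than the core. Of 34 tested matrix proteases and inhibitors, Mmp19 (-1.56, called under 23 of 26 alternatives), Adamts2, a procollagen processing enzyme (-1.33, 19 of 25), Serpine2 and Adamts7 (-0.92, 20 of 26) fell and Adamts6 (0.80, 11 of 25) rose. These calls were 14.7% of the list, against 2.06% of all genes. An unadjusted p under 0.05 was found for 17 of the 34, against 2076 of all 11832 genes. Of 21 tested collagens, Col11a1 (-0.85, 13 of 25) and Col6a1 (-0.82, 10 of 26) fell and none rose (9.52% called, against 2.06% of all genes). Emilin2, an elastic fibre glycoprotein, fell in the core from 21.0 ± 3.04 to 7.58 ± 2.17 FPKM.

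Among 41 tested growth factors and their receptors, 3 receptor genes fell. Pdgfra, a platelet-derived growth factor receptor and a marker of fibro-adipogenic cells, fell from 3.23 ± 0.792 to 0.778 ± 0.499 FPKM (22 of 25), Pdgfrl, a receptor-like relative, from 4.30 ± 0.538 to 0.2496 ± 0.265 (23 of 26), and Gfra1, a receptor chain for glial cell line-derived neurotrophic factor, from 2.19 ± 0.607 to 0.661 ± 0.324 (21 of 25). Of 23 tested Notch pathway genes, 3 fell and none rose (13% called, against 2.06% of all genes). The 3 were the target gene Hey1 (-0.87, 24 of 25), the coactivator Maml3 (-0.68, 12 of 25) and the receptor Notch1 (-0.62, 13 of 25). Of 35 Wnt pathway genes, the inhibitor Apcdd1 rose (0.86, 21 of 25) and the activator Rspo2 fell (-1.02, 18 of 25). That was 5.71% called, against 2.06% of all genes. The receptor-like Ptk7 and the transcription factor Osr1 fell in the core by 1.09 and 1.42. Of 45 TGF-beta and BMP pathway genes, the secreted activin inhibitor Fstl3 rose (0.63, 11 of 26) and Ltbp2 fell (4.44% called, against 2.06% of all genes).

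On the log2(FPKM + 1) scale, the largest rise was that of Aldh1a1 (ENSMUSG00000053279, chromosome 19, 20601961 to 20643462), a retinaldehyde dehydrogenase that makes retinoic acid and is used as a stem cell marker. It read 0.153, 0.470, 0.217 and 0.180 FPKM in controls. In tKO cells it read 4.86 and 19.7 FPKM in clone 1 and 20.0 and 40.1 in clone 2. Every tKO library was far above every control, and the group means differed 82.9-fold (difference 3.85 ± 0.39, SE, limma adjusted p = 1.97e-05). In the retinoid list (22 tested, 9.09% called, against 2.06% of all genes), Rxra, a nuclear retinoid receptor, fell (-0.61, 14 of 26 alternatives) and the other 20 were not called. Of 62 aldehyde dehydrogenase, glutathione and NRF2 response genes, Mgst1, a membrane glutathione transferase, and Sod3, an extracellular superoxide dismutase, fell beside the rise of Aldh1a1 (4.84% called, against 2.06% of all genes). Mgst1 read 20.0, 12.97, 17.4 and 10.9 FPKM in controls, 0.116 and 0.530 in clone 1 and 4.89 and 2.86 in clone 2, so that the clones differed from each other by more than their cultures did. It was called under 22 of 26 alternatives, but not with line averages (limma adjusted p = 0.163). Sod3 fell from 14.6 ± 1.36 to 4.72 ± 3.66 FPKM (SD, n = 4; 13 of 26).

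Further rises were Gadd45g, a growth arrest and DNA damage response gene (48.8 ± 14.6 to 139 ± 72.8 FPKM, 9 of 26 alternatives), AU021092 (difference 1.30, 23 of 26), BC025446 (1.55, 15 of 25), Als2cl (1.05, 20 of 25), the homeobox gene Hoxb6 (0.96, 22 of 25), Gprc5a (0.95, 14 of 26), Cryba4 (0.82, 7 of 25) and the mitochondrial genes Tomm5, a subunit of the outer membrane import channel (0.94, 16 of 26), and Ndufaf4, an assembly factor of respiratory complex I (0.81, 15 of 25). Gm13932, a 1.20 rise called under 17 of 25, is annotated as a pseudogene. Abundant cytoskeletal messages rose as well. Tpm1, an actin-binding tropomyosin, read 354, 373, 361 and 427 FPKM in the controls and 640, 845, 487 and 732 in tKO cells (difference 0.81 ± 0.14, SE, limma adjusted p = 0.00440, 24 of 26), with no overlap. Tpm1 and Tagln2 were the 2 called members of 50 tested actin cytoskeleton and SRF target genes (4%, against 2.06% of all genes). Of the 50, 39 lay above 0 with a median of 0.25, where 47.6% of all genes lay above 0. Tpm1 was also the only 1 of 32 muscle contractile and differentiation genes to be called (3.12%, against 2.06% of all genes).

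Other large falls were Nsg1, an endosomal protein of neurons (37.0 ± 3.02 to 4.62 ± 2.32 FPKM, SD, n = 4), Nkain1, a partner of the sodium pump (15.4 ± 2.06 to 2.12 ± 0.574), and Enpp1, which makes pyrophosphate outside cells (11.2 ± 1.04 to 2.78 ± 0.443), all in the core. Slc1a3, a glutamate transporter, fell from 7.63 ± 1.05 to 1.03 ± 0.871 FPKM (18 of 25). It was 1 of 5 solute carriers that fell among 158 tested, with none rising (3.16% called, against 2.06% of all genes). The others were Slc43a2, Slc9a9, Slc25a20 and Slc38a10 (-0.95 to -0.54, 12 to 22 of their alternatives). The X-linked cancer-testis genes Magea8 and Magea5 fell from 10.4 ± 1.88 to 0.805 ± 0.723 and from 4.27 ± 0.866 to 0.546 ± 0.215 FPKM. They belong to a family of near-identical copies, so how reads were shared between them is uncertain. Sash1, Pawr, Ces1g and Atp8b4 were also in the core and fell by 1.10 to 1.64. Of 28 tested histone genes, H2afy2 and Hist1h2af fell (9 and 11 of 25 alternatives), the second from a family of near-identical copies. They were 7.14% of the histone list, against 2.06% of all genes.

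**Figure D3:**
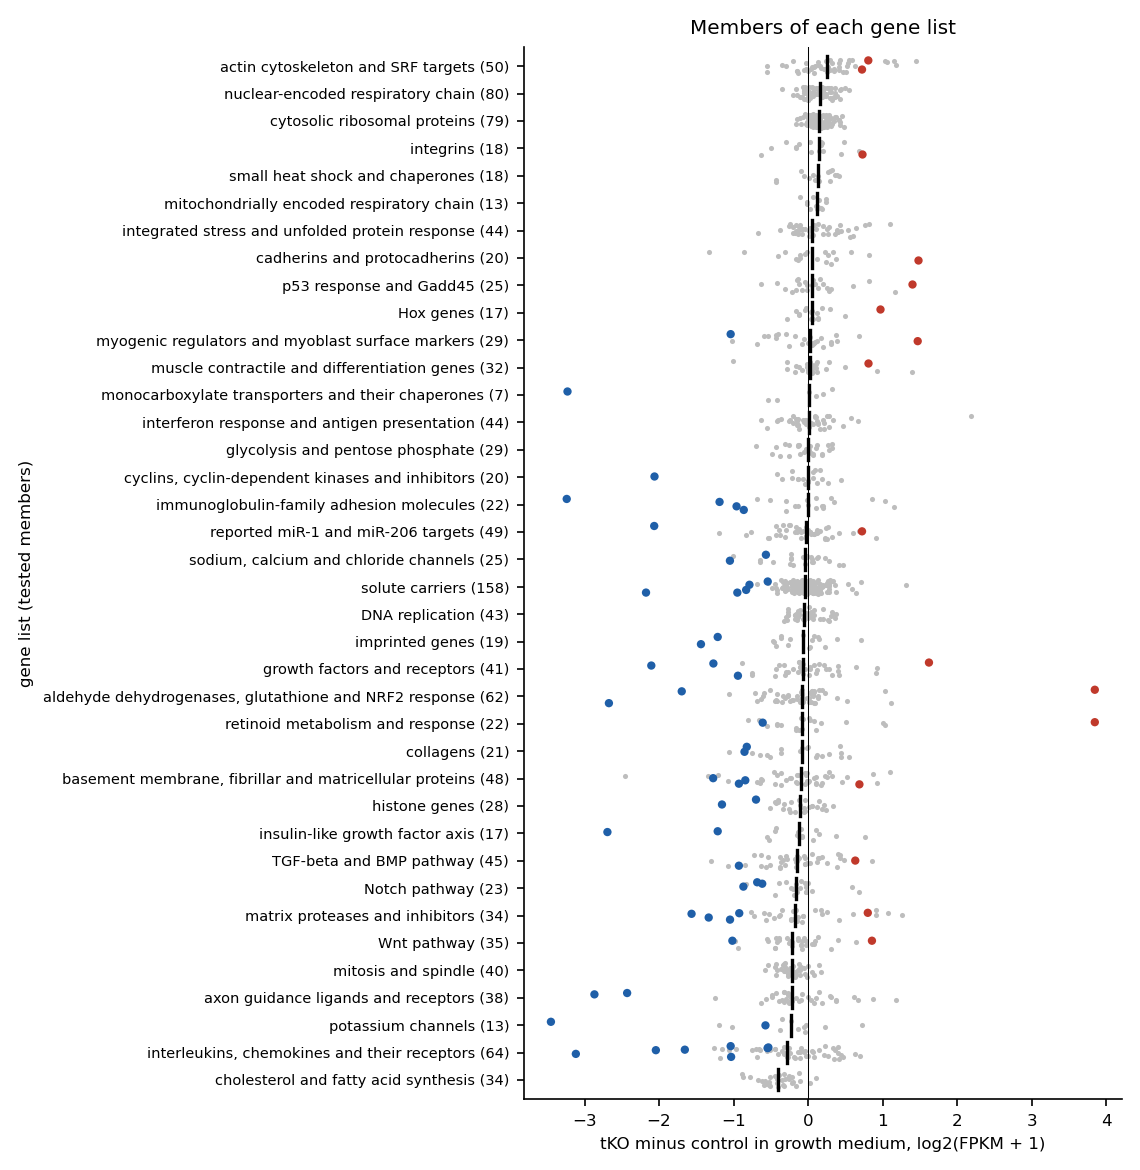
Differences between tKO and control cells (log2 FPKM + 1) for the tested members of 38 gene lists, sorted by median; grey points were not called, red and blue points were called higher and lower, black bars are medians and the numbers in brackets count tested members. Of all tested genes, 2.06% were called. Some lists with tight points, such as the 80 respiratory chain and 79 ribosomal genes (medians 0.16 and 0.15), hold no called member. The cytokine, guidance and matrix protease lists hold some large falls, and their medians lie below 0, at -0.28, -0.22 and -0.17.

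Several large gene groups held no call, where 2.06% of all tested genes were called and 47.6% lay above 0. At that share, lists of this size can hold no call without differing from all genes. None of 43 DNA replication genes and none of 40 mitosis and spindle genes passed the limma test. Of them, 4 and 1 had an unadjusted p under 0.05, against 2076 of all 11832 genes. Rrm2, a ribonucleotide reductase subunit, and Pcna, the sliding clamp of DNA polymerase, stood at 203 ± 8.79 and 136 ± 11.9 FPKM in controls (SD, n = 4) and 210 ± 55.6 and 139 ± 10.3 in tKO cells. The point estimates of the mitosis genes leaned down (36 of 40 below 0, median -0.22), with Top2a at 119 ± 21.4 and 96.4 ± 20.4 FPKM and Cdc20 at 92.7 ± 29.5 and 110 ± 64.6. Of 34 cholesterol and fatty acid synthesis genes, 32 lay below 0 with a median of -0.40 and none was called; 6 had an unadjusted p under 0.05. The abundant members Scd2 and Fdps split by culture number, more in tKO cells than in controls. Scd2, a fatty acid desaturase, read 365 and 227 FPKM in culture 1 of clones 1 and 2 and 60.2 and 70.6 in culture 2. In controls it read 314 and 251 in culture 1 and 224 and 227 in culture 2. Fdps, an enzyme of isoprenoid synthesis, read 134 and 104 against 60.5 and 37.2 in tKO cells, and 111 and 104 against 74.7 and 77.7 in controls.

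Energy and protein synthesis genes were closer together. Of 80 nuclear-encoded respiratory chain genes, 60 lay above 0 (median 0.16), none was called and 11 had an unadjusted p under 0.05. Over all genes, 47.6% lay above 0, 2.06% were called and 2076 of 11832 had an unadjusted p under 0.05. Atp5b and Atp5a1, subunits of ATP synthase, stood at 1188 ± 82.3 and 342 ± 15.3 FPKM in the controls and 1283 ± 106 and 443 ± 60.5 in tKO cells. None of 13 mitochondrially encoded genes, 79 cytosolic ribosomal protein genes (67 above 0, median 0.15), 29 glycolysis and pentose phosphate genes, 44 stress response genes or 18 heat shock genes was called, and 0, 2, 5, 5 and 3 of them had an unadjusted p under 0.05. Against the same controls, the ribosomal median was 0.23 in clone 1 and 0.02 in clone 2. The voom fit on fragment numbers also called no member of these lists or of the replication, mitosis and lipid synthesis lists. Under TPM scaling, which moved the median of all genes to -0.07, the medians of these lists kept their signs (0.10 for the respiratory chain, 0.10 for ribosomal proteins, -0.27 for mitosis and -0.47 for lipid synthesis). With that scaling, 52 of the 80 respiratory chain and 58 of the 79 ribosomal genes lay above 0.

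Markers of other cell types were looked at beside these lists. Pdgfra was the only called gene among 9 tested of 14 fibroblast and fibro-adipogenic markers, whose summed level was 3210 to 3787 FPKM in the controls and 2766 to 4236 in tKO cells, with Dpp4 at most 2 fragments. S100a4 (2516 ± 285 and 2903 ± 500 FPKM in control and tKO cells) made up most of that sum, and Col1a1 stood at 511 ± 166 and 400 ± 128. Of single members, 7 of the 9 tested markers lay below 0, with a median of -0.36. Among those not called, Col3a1 stood at 500 ± 46.2 and 323 ± 141 FPKM and Mfap5, named after its values were seen, at 3.14 ± 1.51 and 1.05 ± 1.08 (SD, n = 4; limma adjusted p = 0.129 for both). The smooth muscle and pericyte sum was 1917 to 3084 FPKM in the controls and 2091 to 5532 in tKO cells, mostly Acta2, which embryonic and cultured myoblasts also make, while Myocd, a defining factor, had at most 1 fragment. Epithelial markers summed to 2.53 to 6.95 FPKM in the controls and 10.4 to 15.1 in tKO cells, mostly Krt14 (3.91 ± 1.86 and 10.2 ± 1.82 FPKM, SD, n = 4; difference 1.25, limma adjusted p = 0.0612), and Cldn3 and Cldn4 had at most 3 fragments. Adipocyte, osteoblast, leukocyte and neural markers summed to at most 29.5 FPKM in any library, and endothelial markers to at most 0.940. Their part in the differences above was not tested.

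The messages that the deleted microRNAs are reported to target moved in both directions at this stage, with few calls. Of 56 listed targets, 49 were tested (4.08% called, differences from -2.06 to 0.91): 1 rose, 1 fell, 22 lay above 0 and the median was -0.03, against -0.01 for all genes. An unadjusted p under 0.05 was found for 13 of the 49, against 2076 of all 11832 genes. Tagln2 (ENSMUSG00000026547, chromosome 1, 172500047 to 172507380), transgelin-2, an actin-binding protein with the 7-base site shown above, rose. It read 270, 281, 285 and 299 FPKM in controls, 417 and 716 in clone 1 and 323 and 503 in clone 2, with no overlap (difference 0.72 ± 0.17, SE, limma adjusted p = 0.0400). The call held under 10 of 26 alternatives, but not with line averages (limma adjusted p = 0.107). Ccnd2 (ENSMUSG00000000184, chromosome 6, 127125779 to 127151048), cyclin D2, with a 7-base site, went the other way: 4.02, 3.85, 3.44 and 3.77 FPKM in the controls and 0.118, 0.248, 0.0615 and 0.137 in tKO cells. This 26.7-fold lower mean was a core call (difference -2.06 ± 0.22, SE, limma adjusted p = 2.66e-05). It was the only call among 20 tested cyclins, cyclin-dependent kinases and inhibitors (5%, against 2.06% of all genes). The abundant Cdk4 and Cdkn1a of that list stood at 197 ± 21.3 and 240 ± 87.4 FPKM in the controls and 206 ± 13.2 and 243 ± 113 in tKO cells.

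The other abundant targets did not pass the test. Anxa2 stood at 501 ± 43.0 FPKM in the controls and 511 ± 30.9 in tKO cells (SD, n = 4), Tmsb4x at 286 ± 31.2 and 455 ± 157, Hspd1 at 269 ± 27.1 and 364 ± 70.1 and Cald1 at 257 ± 26.4 and 314 ± 80.9. Targets with the 8-base sites shown above, Mmd, Twf1 and Gpd2, differed by 0.24, -0.15 and -0.14 in GM (limma adjusted p = 0.603, 0.789 and 0.548), and by 1.35, 1.08 and 0.48 in DM3 (limma adjusted p = 0.00106, 0.0164 and 0.0180). The gap-junction gene Gja1, with 2 such sites, differed by 0.23 in GM and 0.30 in DM3 and passed the test in neither (limma adjusted p = 0.615 and 0.485). Of the 15 tested targets with an 8-base site, 8 lay above 0 and 0 were called in GM by limma, while 13 lay above 0, 5 were called and 10 were not in DM3.

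The same comparison was made across all genes with a seed match. Of 10844 tested genes with an annotated 3′ UTR, 513 (4.73%) held ACATTCCA, 1665 (15.4%) held only a 7-base version and 8666 (79.9%) held neither; the search ran on the message strand and the 8-base site contains both 7-base ones. In GM the median difference was -0.05, -0.05 and -0.01 in these classes. In DM3 it was 0.16, 0.08 and -0.01. Calls in GM were 2 higher and 9 lower of the 513, 10 higher and 28 lower of the 1665, and 48 higher and 139 lower of the 8666, so that 2.14%, 2.28% and 2.16% of each class were called. Cxcr4 was 1 of the 9 genes with the 8-base site that fell, and Ndufaf4 was 1 of the 2 that rose. UTRs were longer in genes with a site (median 2655 and 2483 bases) than in those without (1145), which was not adjusted for.

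The 2 tKO clones were also compared with each other, as were the 2 control populations. In GM, clone 2 and clone 1 differed in 86 of 11832 genes (0.727%), whereas the 2 control populations differed in 0 (0.0%; limma adjusted p under 0.05; 25 genes had an unadjusted p under 0.05, and voom also called 0). Both clones were then set against the same 4 control libraries, so these values share their controls. Clone 1 lay farther from controls than clone 2 in 50 of the 65 and 134 of the 179, with median differences of 0.78 and 0.58 for the rises and -1.05 and -0.73 for the falls. The clones themselves differed in 1 and 8 of these genes. Mgst1 was 1.87 higher in clone 2 than in clone 1 and Mmp19 1.19 higher, while H2afy2 differed by -1.14 (limma adjusted p = 0.0181, 0.0104 and 0.0479). Des, not called between genotypes, read 41.4 and 25.6 FPKM in clone 1 and 12.02 and 9.22 in clone 2, against 31.2 to 47.8 in controls.

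**Figure D4:**
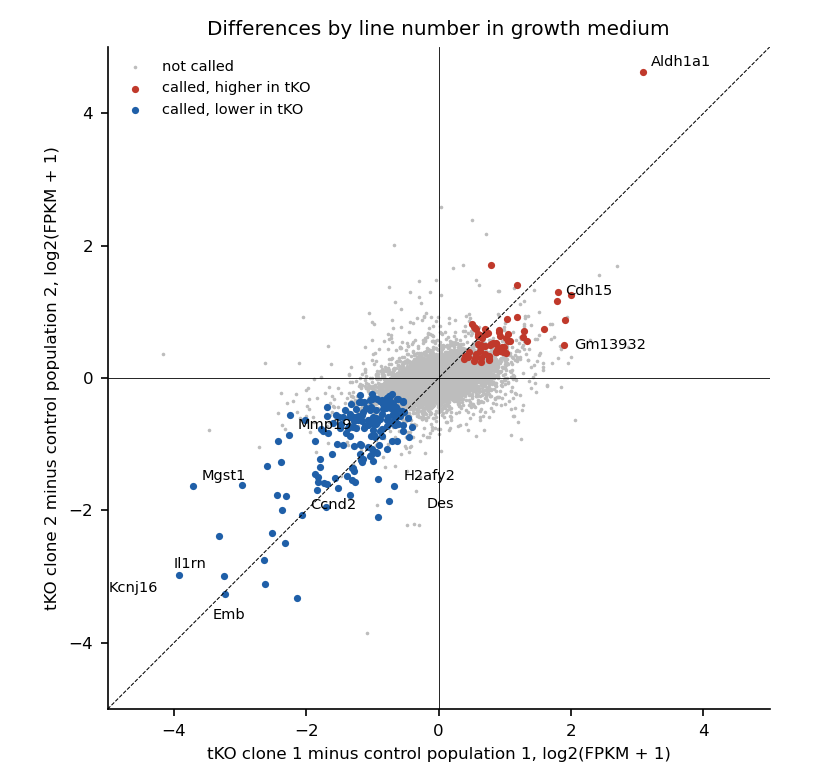
Difference between tKO clone 1 and control population 1 (horizontal axis) and between tKO clone 2 and control population 2 (vertical axis), both in log2(FPKM + 1), for 11832 genes; the dashed line marks equal differences. Called genes, red for higher and blue for lower in tKO cells, lie in the upper right and lower left, and most lie nearer the horizontal axis, where clone 1 differs more.

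Median levels in the clones also differed from controls by chromosome, and position within a chromosome was not examined. In clone 1 the median gene of chromosome 4 (738 tested) was 0.30 and 0.25 above the control mean in cultures 1 and 2, and that of chromosome 5 (739 tested) stood at -0.22 and -0.25 on the same scale. In clone 2 the same medians were 0.03 and -0.02 on chromosome 4 and 0.01 and -0.02 on chromosome 5. On chromosome 18 (299 tested) they were 0.27 and 0.22 in clone 1 and 0.12 and 0.03 in clone 2, and on chromosome 19 0.12 and 0.02 in clone 1 and -0.11 and -0.17 in clone 2. The chromosome 13 median was below the control mean in all 4 tKO libraries, at -0.17 to -0.09, and so was that of chromosome 15, at -0.15 to -0.05. The chromosome 16 median was above it in all 4, at 0.06 to 0.13. Over the 20 chromosomes with at least 100 tested genes, the fitted median ran from -0.23 to 0.27 in clone 1 and from -0.14 to 0.08 in clone 2, against -0.0015 to 0.03 between the control populations. The DM3 libraries of clone 1, which are separate samples, had medians of 0.22 and 0.38 on chromosome 4 against DM3 controls. Their chromosome 5 medians on the same scale were -0.27 and -0.09. Relative to the median of all genes, they were 0.32 and 0.30 on chromosome 4 and -0.17 and -0.17 on chromosome 5. Some genes named above moved in the direction of their chromosome: Tomm5 and Ndufaf4 (chromosome 4), Apcdd1 (18), and Nsg1, Pdgfra, Sod3 and Auts2 (5). The same held for Emb, Il6st, Syk and Hist1h2af (13), for Slc1a3, Csf2rb, Lifr, Cacnb3 and Rspo2 (15), and for AU021092 and Igsf11 (16). Others moved against it: Nkain1, Cyp2j6 and Tnfrsf9 (4), Cryba4 (5), Gadd45g and Adamts6 (13), BC025446 (15) and Robo1 (16). The part of these shifts in the differences of single genes was not tested. Called genes made up 1.06% to 3.22% of the tested genes on each of these 20 chromosomes. The highest share was on chromosome 16, with 9 genes called higher and 3 called lower.

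**Figure D5:**
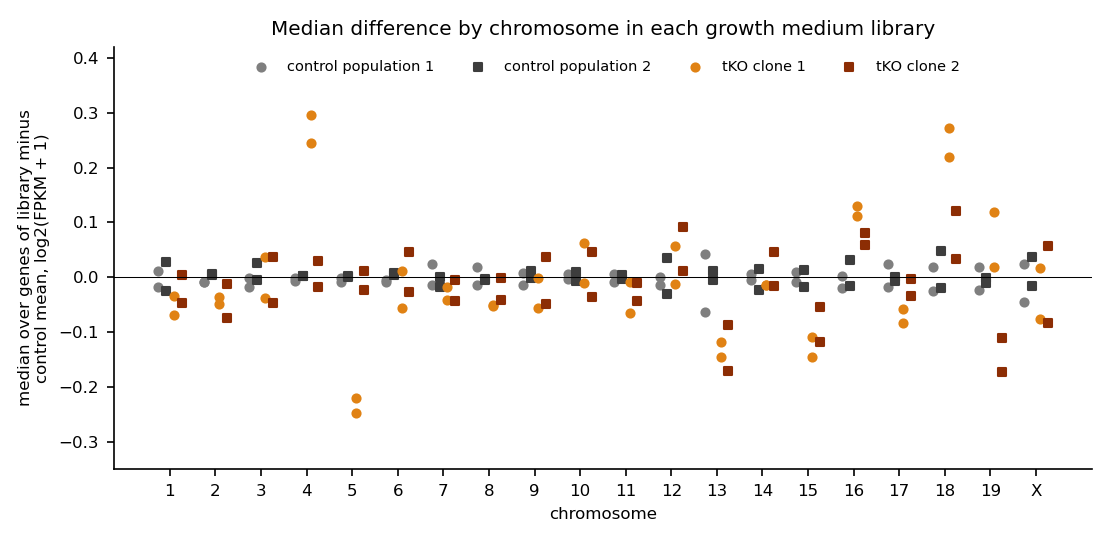
Median over tested genes of each growth medium library minus the mean of the 4 controls (log2 FPKM + 1), by chromosome; circles and squares are lines 1 and 2, grey for controls and orange or brown for tKO clones. Both cultures of tKO clone 1 stand at 0.25 to 0.30 on chromosome 4 and at -0.25 to -0.22 on chromosome 5, where clone 2 reads -0.02 to 0.03.

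The GM differences were then followed into DM3, where 400 genes (3.38%) differed between genotypes. Of the 65 genes higher in GM, 51 were higher in DM3 too, 16 were called there in the same direction and 0 in the opposite one. Of the 179 lower in GM, 162 were lower in DM3, 60 were called there and 0 were called in the opposite direction. The sizes shrank: the median difference went from 0.66 to 0.24 for the rises and from -0.92 to -0.47 for the falls, where the genes had been chosen on their GM values. The core kept its direction in all 33 genes, and 30 of them were called in DM3. Of the 14 nearly absent genes, 13 were called in DM3. Emb stood at 13.2 FPKM in control and 0.0992 in tKO DM3 libraries (means of 4), Igfbp2 at 13.02 and 0.200, and Aldh1a1 differed by 4.36. The genotype by stage interaction, called in 30 genes (0.254%), was called in 1 of the 65 and 3 of the 179. Il1rn was 1 of these, with a difference of -3.12 in GM and -0.81 in DM3 (interaction 2.31, limma adjusted p = 0.00500).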

How the data were processed

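RNA from 16 libraries was measured by poly(A)-selected RNA sequencing. The authors deposited 1 table of FPKM values per gene with its length; STAR, DESeq and mm10 are named in the submitters' processing notes without roles or versions, and the annotation release and strandedness are not given in the sources used here. Each FPKM times gene length was a whole multiple of 1 step per library (100% of values within 0.02), which gave fragment numbers per gene and each library's depth. Counting intervals are exact at 95%, pool the 4 libraries of a group and cover counting error only.

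Values were taken as log2(FPKM + 1) for the 11832 genes whose FPKM averaged 0.5 or more across the 16 libraries. Limma 3.58.1 (R 4.3.3) fitted 4 group means with trended, robust moderation, and p-values were Benjamini-Hochberg adjusted over all genes; clones and populations were compared in a fit of 8 line-by-stage means. Voom in limma was run on fragment numbers. Seed matches were searched in the longest GENCODE M21 3′ UTR of each gene. The fits were also run on simulated independent libraries. These had no line, clone, culture or chromosome effects, so that run cannot vouch for the calls made here. Python 3.11.15 with pandas 2.3.3, numpy 2.4.6, scipy 1.17.1 and matplotlib 3.10.9 was used otherwise. Alternatives changed the pseudocount (0.1), filter, scaling, model, samples and replicate block.

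The comparison and gene lists were chosen with earlier results of these data known. Named genes were the 15 largest rises and 15 largest falls among called, non-overlapping genes with a higher group mean of at least 2 FPKM, up to 6 called members of each list, the deleted genes' hosts, and abundant members of lists described singly. Items withheld for evaluation are not reported here.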

Additional observations from a re-analysis of the deposited data

Results flagged for a closer look

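Single libraries stood apart in 12 of 224 groups of 4 libraries, over 112 named genes, by Dixon's test at its 95% critical value, where chance alone gives about 1 in 20. Among tKO libraries, Ntn1 read 6.24 FPKM in clone 1 culture 1 (others 1.89 to 2.37) and Csf2rb read 1.498 FPKM in clone 2 culture 1 (others 0.0354 to 0.198). Adamts2 read 0.395 FPKM in clone 2 culture 1 (others 0.802 to 0.880), and Lifr 0.613 FPKM in clone 1 culture 2 (others 0.911 to 0.937). Igfbp2 read 0.203 FPKM in clone 1 culture 2 (others 0.0244 to 0.0258). Auts2 and Rab6b read 0.0179 and 0.0706 FPKM in the same library, and Serpine2 and Cntn3 0.0191 and 0.00626 FPKM in clone 2 culture 2, each with 0 in the other 3 tKO libraries; with 3 values at 0 any reading above 0 in the remaining library meets the test, and these 4 rest on 3, 8, 2 and 1 fragments. Among controls, population 2 culture 1 was low for Pdgfrl (3.50 FPKM, others 4.57 to 4.58) and Col11a1 (0.731 FPKM, others 1.20 to 1.27), and population 1 culture 1 was low for Pcna (118 FPKM, others 141 to 144).

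Clone 2 differed from clone 1 in 5 named genes by limma. The difference was -1.14 for Gm13932 (adjusted p = 0.0242), 1.87 for Mgst1 (0.0181), 1.19 for Mmp19 (0.0104), -1.14 for H2afy2 (0.0479) and -1.54 for Des (0.0263). For Il1rn, the genotype difference itself changed between stages, by 2.31 from GM to DM3 (limma adjusted p = 0.00500). These values are given with no explanation.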

How the results depend on the processing

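The number of genes called between tKO and control GM cells (244; 65 higher, 179 lower) stayed within 1.5 times under a pseudocount of 0.1 (281), a filter on GM libraries (260), median-of-ratios scaling (226), voom (203), fits without moderation trend (242), of GM libraries only (201) or with line as a random effect (233). A mean of at least 5 FPKM gave 93 (27 higher, 66 lower) with fewer genes tested, and a change of at least 1 log2 unit 88 (11, 77). No filter gave 40 higher and TPM 42 higher. Line averages gave 97 (21, 76) and line-by-stage means 431 (123, 308). Leaving out 1 library gave 80 to 749 (10 to 258 higher, 70 to 491 lower). Without control line 1 the counts were 33 (2, 31) and without control line 2 38 (2, 36). Without tKO line 1 they were 179 (51, 128) and without tKO line 2 1315 (509, 806). The cause was not tested. Clone 2 against clone 1 (86 genes) gave 36 at 5 FPKM, 36 to 56 without 1 tKO library and 70 to 73 without 1 control library, and the control populations gave 1 without a filter.

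Nothing in the labels ties the culture numbers to a shared day or batch. Deviations of same-numbered libraries of the 2 genotypes correlated across genes at 0.0955 to 0.452, with 1 of 8 pairs under 0.1, and those of differently numbered libraries at -0.419 to -0.0558. Every library thus correlated best with its own number, a hint of pairing from the data and not the design. With culture number as a replicate block, 336 genes were called (102 higher) and 147 between clones. With the number within each stage as the replicate block, these were 635 (199 higher, 436 lower) and 361.

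Of the genes named, 9 changed sign under some alternative, and none of these was called. Under TPM, Anxa2, Rrm2 and Pcna were at -0.0234, -0.0440 and -0.0206. Without control line 1, Rrm2 and Pcna were at -0.0287 and -0.0347, and without tKO line 2 Rrm2 was at -0.216. Without tKO line 1, Pcna, Cdc20, Cdkn1a, Itgb5 and Pcdhga12 were at -0.0483, -0.0446, 0.369, 0.179 and 0.0441. Without 1 library, values ran from -0.0220 to 0.0793 for Anxa2, -0.151 to 0.143 for Rrm2, -0.0302 to 0.0738 for Pcna, -0.204 to 0.412 for Cdc20, -0.304 to 0.292 for Cdkn1a, -0.372 to 0.138 for Itgb5, -0.199 to 0.0282 for Pcdhga12, -0.543 to 0.0638 for Fdps and -0.00273 to 0.412 for Mmd.

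Depth limits the low levels: with tKO values under 3 fragments, as for Cntn3 or Serpine2, a ratio is at least as uncertain as its counting interval. That interval leaves out the spread between cultures and lines.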
